A study of Saccharomyces cerevisiae with 24 samples.

Results

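Ribosome footprints, the mRNA fragments that ribosomes shield from RNase, were compared between yeast grown in synthetic complete medium (SD) and yeast grown in rich medium (YPD), without stress and without cycloheximide in the culture. The comparison took the 1 library from SD and all 3 libraries from unstressed YPD cultures that received no drug, 4 of the 24 samples of the series. SD was made of yeast nitrogen base as the nitrogen source, an amino acid and supplement mix and glucose, and YPD of yeast extract, peptone and glucose. All 4 libraries came from strain BY4741, a MATa laboratory strain that lacks LEU2, URA3 and MET17 and carries a partial deletion of HIS3, and all 4 were made with primer set 1. The cells were collected by filtration and lysed in buffer that held cycloheximide. The YPD libraries differed in the lysis. The plain library had no further additive, the edeine library had edeine, a blocker of initiation, in the lysis and gradient buffers, and the aurin library had aurintricarboxylic acid, another blocker of initiation, in the lysis buffer, was digested with RNase after the gradient and pooled monosomes with polysomes. The growth label reads YPD for every sample, and the SD library was taken as SD from its title and from the methods. The methods do not say whether the SD cells were moved to fresh medium before collection.

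Yeast cells switch on import and synthesis pathways for the nutrients they lack and switch them off when the nutrient or its end product is supplied. Phosphate shortage is read by the PHO pathway through the factor Pho4, iron shortage by Aft1, methionine and sulfur supply by Met4, inositol and choline by Ino2, Ino4 and Opi1, and amino acid shortage by Gcn4, whose own mRNA is controlled at translation. Stress and slower growth act through Msn2 and Msn4, which drive a set of protective genes. Footprint density reflects mRNA level, the rate at which an mRNA is loaded with ribosomes and how fast these elongate. No mRNA library was compared here, so these parts cannot be told apart.

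The strain check gave the same picture in all 4 libraries. LEU2, URA3 and MET17 were listed at 0 RPKM, the reads of a gene divided by its length in kilobases and by the library's M reads (M, 10 to the power of 6), in each. HIS3 stood at 98.8 RPKM in SD and at 95.3, 95.5 and 124 in the plain, edeine and aurin libraries, and this order of the YPD libraries is kept below. The depth recovered from the RPKM values was 9.70 M reads for SD and 27.8, 2.55 and 6.94 M for YPD. Across the 3796 genes that averaged 10 RPKM or more over the 4 libraries, the SD library correlated with the YPD libraries at r = 0.952 to 0.954 on the log2(RPKM + 1) scale, and the YPD libraries with each other at 0.972 to 0.981, as a description over genes that share a library. SD was at least 2-fold above all 3 YPD libraries in 82 genes (2.16%) and at least 2-fold below all of them in 27 (0.711%). The same count for a single YPD library against the remaining 3 libraries was at most 5 above and at most 16 below.

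With limma on log2(RPKM + 1), 91 genes were higher and 29 lower in SD at an adjusted p (Benjamini-Hochberg over all genes tested) under 0.05. These are 2.4% and 0.764% of the genes tested, or 3.16% in both directions. They are the background for the call counts of the lists below. All 91 lay above and all 29 below every YPD library. Of all genes tested, called or not, 33.2% lay above every YPD library and 14.8% below. The spread in this test comes from the 3 YPD libraries, with 2 residual degrees of freedom moderated across genes. The lone SD library is assumed to vary as they do, no separate SD culture tests this, and p-values measure only the spread among these libraries. The call counts depend on the YPD libraries used: without the aurin library 191 genes were higher and 45 lower, without the edeine library 93 and 30, and without the plain library 75 and 24. They also depend on the filter, since with no filter on low values limma called 0 genes in either direction, with 409 higher and 72 lower at an unadjusted p under 0.05. With the filter, 260 genes (6.85%) were higher and 51 (1.34%) lower at an unadjusted p under 0.05. The filter took the mean of all 4 libraries, SD included. A gene low in YPD could thus be tested through its SD value alone, and its SD value was then bound to exceed its YPD mean. Examples below are STR3, PHO87, SSA4, MSC1, GAD1 and GAP1, with all YPD values under 10 RPKM. The same holds for SER3, AGP1, ARO10, MHT1, DDR2 and PGM2, whose YPD mean was under 10 RPKM. Genes low in SD could likewise be tested through YPD alone. Counts and medians of the lists below include genes of both kinds. The median difference of all genes was 0.08 on the log2 scale, and it became -0.0523 after the median gene of every library was set to 0, a shift of the whole scale against which the differences below should be read. Over all gene lists together, 51 of the 91 higher genes and 18 of the 29 lower genes were list members. The share of all tested genes that belong to a list was not computed, and the lists were chosen with earlier results of these data known. These counts therefore do not measure how concentrated the calls were. In the sulfate and methionine, phosphate, iron, phospholipid, general stress, arginine, permease, respiratory, TCA cycle, heat shock and glycolysis lists, 0 members passed limma's test in the direction opposite to the calls, also at an unadjusted p under 0.05.

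**Figure D1:**
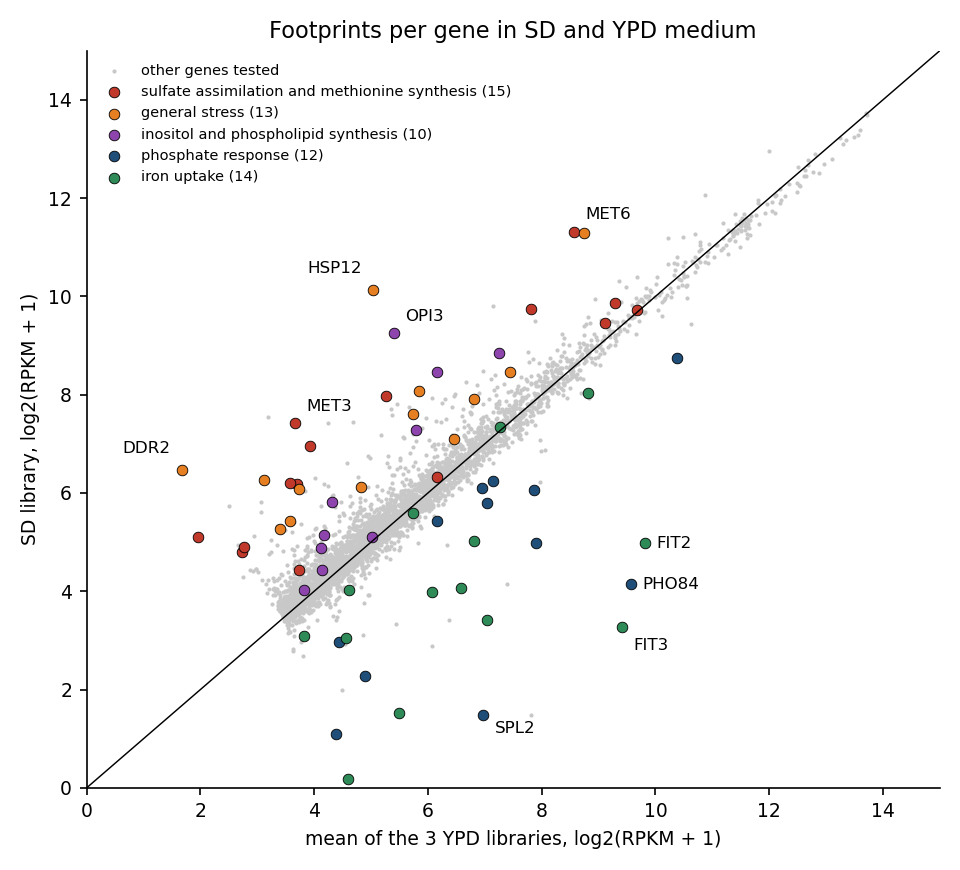
Footprint density of each gene in the SD library (vertical axis) against the mean of the 3 YPD libraries (horizontal axis), both as log2(RPKM + 1). Grey points are the genes tested and the line marks equal values. Coloured points are members of 5 lists, and phosphate and iron genes such as PHO84 and FIT3 lie below the line while methionine, stress and phospholipid genes such as MET6, HSP12 and OPI3 lie above it.

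Sulfate assimilation and methionine synthesis genes were higher in SD. Of 15 members tested, 10 rose, 0 fell and all 15 lay above every YPD library (33.2% of all genes), with a median log2 difference of 2.14 beside 0.08 for all genes. Among the 9 members with a mean of at least 30 RPKM the median was 1.94. Yeast takes up sulfate, activates it with ATP, reduces it to sulfide and joins it to a carbon skeleton to make homocysteine and methionine. The first enzyme after uptake, the ATP sulfurylase MET3, stood at 170.5 RPKM in SD and at 13.5, 11.2 and 10.4 RPKM in YPD. The groups did not overlap and SD was 12.6 times the highest YPD value (log2 difference 3.76 ± 0.29, standard error, limma adjusted p = 1.66e-06). MET14, the kinase of the next step, stood at 251 RPKM in SD and at 45.5, 28.5 and 40.8 RPKM in YPD (2.71 ± 0.32, limma adjusted p = 9.87e-05). The sulfite reductase subunit MET5 stood at 123 RPKM in SD against 18.7, 11.3 and 13.3 RPKM, and the other subunit, MET10, at 71.9 RPKM against 14.6, 8.88 and 13.1 RPKM. Both subunits were thus above every YPD library, by 6.57 and 4.94 times the highest value. MET16, which reduces the activated sulfate, rose by 2.14 on the log2 scale with a limma adjusted p of 0.000342.

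The end of the methionine pathway showed the same direction. MET6, the methionine synthase, is among the most translated genes of this list and stood at 2549 RPKM in SD and at 464, 354 and 334 RPKM in YPD, with the SD value 5.49 times the highest YPD value (2.74 ± 0.30, limma adjusted p = 5.27e-05). STR3, a cystathionine beta-lyase that makes homocysteine from cystathionine, stood at 33.2 RPKM in SD against 4.25, 1.21 and 4.00 RPKM, of which the edeine value rests on 4 reads. MET2, which activates homoserine, and MET13, which supplies the methyl group to methionine synthase, rose by 2.06 and 2.64 on the log2 scale. SAM2, which makes S-adenosylmethionine, stood at 859 RPKM in SD against 229, 208 and 232 RPKM, a narrow YPD range that the SD value exceeded 3.71-fold (limma adjusted p = 0.000644). Its paralog SAM1 was not called, at 938 RPKM in SD and 683, 546 and 658 RPKM in YPD. CYS3 and CYS4, which run the transsulfuration from homocysteine to cysteine, were not called either. CYS3 stood at 842 RPKM in SD and at 837, 840 and 765 RPKM in YPD. All 10 calls were kept without each YPD library in turn. In total, genes of this list held 1.52% of the recovered reads in SD (95% Wilson interval 1.51 to 1.53%) and 0.560, 0.489 and 0.486% in YPD, a range that SD exceeded. Intervals of shares cover counting error only. Shares are taken of the recovered reads summed over genes, 6964026 in SD and 19991050, 1832717 and 4981282 in YPD. These totals are below the depths given above.

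The sulfate permeases were below the filter and were not tested, and their counts are given as a description. SUL2 had 434 reads in SD at 17.4 RPKM and 74, 6 and 22 reads in YPD, at 1.03, 0.912 and 1.23 RPKM. SUL1 had 36 reads in SD and 8, 0 and 1 in YPD. The S-adenosylmethionine permease SAM3 stood at 144 RPKM in SD and at 43.7, 37.0 and 26.9 RPKM in YPD (2.00 ± 0.32, limma adjusted p = 0.00144), and MHT1, which makes methionine from S-methylmethionine, at 27.1 RPKM against 10.6, 9.87 and 9.39 RPKM. IRC7, a beta-lyase that acts on cysteine, went the other way, with 6.36 RPKM in SD and 66.7, 63.8 and 69.6 RPKM in YPD. It fell by 3.20 on the log2 scale (limma adjusted p = 6.04e-06), and the YPD libraries lay close together.

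Phosphate response genes were lower in SD. Of 12 members tested, 7 fell, 0 rose and all 12 lay below every YPD library (14.8% of all genes), with a median log2 difference of -1.73. PHO84, the high-affinity phosphate transporter of the plasma membrane, stood at 16.8 RPKM in SD (271 reads) and at 1178, 701 and 522 RPKM in YPD. The lowest YPD value was 31.1 times the SD value (-5.41 ± 0.38, limma adjusted p = 7.38e-07). PHO84 overlaps an annotated noncoding RNA without a line of its own, as does SER3 below, and whether strand was used in counting is not given in the sources used here. SPL2, a small protein that limits low-affinity phosphate uptake, had 6 reads in SD at 1.78 RPKM and stood at 161, 117 and 104 RPKM in YPD. Its mean YPD value was 71.4 times that in SD, with a 95% Poisson interval of the SD count of 32.8 to 194. The low-affinity phosphate transporter PHO87 was not in the list and moved in the opposite direction, with 20.4 RPKM in SD and 5.70, 5.73 and 8.85 RPKM in YPD (1.48 ± 0.31, limma adjusted p = 0.0128).

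The vacuolar transporter chaperone makes polyphosphate, the phosphate store of the vacuole, and 3 of its subunits fell. VTC3 stood at 30.7 RPKM in SD and at 290, 246 and 189 RPKM in YPD (-2.91 ± 0.31, limma adjusted p = 4.00e-05). VTC1 stood at 426 RPKM in SD against 1461, 1255 and 1276 RPKM, and VTC4 at 65.5 RPKM against 299, 202 and 211 RPKM. The drop differed among subunits of one complex, with the mean YPD value 3.12, 3.62 and 7.86 times that of SD for VTC1, VTC4 and VTC3. VTC2 was not called, at 67.7 RPKM in SD and 142, 116 and 113 RPKM in YPD. PHM6, a phosphate-regulated protein, had 8 reads in SD at 3.83 RPKM and stood at 42.0, 23.7 and 24.1 RPKM in YPD. PHO81, the inhibitor of the Pho80-Pho85 kinase that keeps the pathway off, stood at 6.83 RPKM in SD and at 26.4, 16.6 and 19.8 RPKM in YPD (-1.46 ± 0.31, limma adjusted p = 0.0142).

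Phosphate genes also differed among the YPD libraries, and the plain library was the highest of the 3 for all 12 members. PHO89, a sodium-coupled phosphate transporter, showed the widest YPD range, with 138, 11.8 and 4.17 RPKM, against 1.14 RPKM in SD. It was not called (limma adjusted p = 0.192). The secreted acid phosphatases are counted together on 1 line (PHO11, PHO12, PHO5 and PHO3), which stood at 54.9 RPKM in SD and at 261, 88.6 and 97.4 RPKM in YPD and was not called either. Without the aurin library all 12 members were called lower, without the edeine library 9 and without the plain library 8. The list held 0.104% of the reads in SD (0.102 to 0.107%) and 0.710, 0.456 and 0.391% in YPD.

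Iron uptake genes were lower in SD as well. Of 14 members tested, 9 fell, 0 rose and 11 lay below every YPD library (14.8% of all genes), with a median log2 difference of -1.95. With the spread also taken from the 4 libraries at the x100 cycloheximide dose, 3 iron genes were called lower, and 7 phosphate genes. The largest differences were in the cell wall mannoproteins that hold siderophore-bound iron, FIT1, FIT2 and FIT3. FIT3 stood at 8.60 RPKM in SD (43 reads) and at 482, 771 and 849 RPKM in YPD (-6.15 ± 0.34, limma adjusted p = 5.20e-08). FIT2 stood at 30.7 RPKM in SD and at 573, 1310 and 986 RPKM in YPD (-4.84 ± 0.38, limma adjusted p = 2.11e-06). FIT1 had 2 reads in SD and stood at 14.6, 38.0 and 22.6 RPKM in YPD, and its mean YPD value was 180.3 times that in SD with a 95% Poisson interval of the SD count of 50.02 to 1492. The SD value of each of the 3 genes was far outside the YPD range, although YPD libraries themselves differed by up to 2.61-fold.

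The siderophore transporters of the ARN family moved with the mannoproteins, to different degrees. ARN2 stood at 1.87 RPKM in SD and at 47.3, 73.3 and 24.03 RPKM in YPD (-3.96 ± 0.44, limma adjusted p = 6.33e-05). ENB1 stood at 14.8 RPKM in SD against 79.1, 84.0 and 44.0 RPKM, and SIT1 at 31.5 RPKM against 116, 166 and 72.7 RPKM. ARN1 was the least different of the 4, at 7.27 RPKM in SD against 23.7, 27.5 and 17.9 RPKM. The call of SIT1 (limma adjusted p = 0.0128) was lost without the plain library (0.0504). FRE1, the reductase that releases iron and copper for uptake, stood at 9.61 RPKM in SD and at 122, 193 and 94.6 RPKM in YPD (-3.63 ± 0.36, limma adjusted p = 2.26e-05). TIS11, an RNA-binding protein that marks mRNAs of iron-using proteins for decay, stood at 15.8 RPKM in SD and at 56.1, 131 and 116 RPKM in YPD.

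The oxidase and the permease of high-affinity reductive uptake did not share the size of these changes. The multicopper oxidase FET3 stood at 262 RPKM in SD and at 423, 587 and 366 RPKM in YPD, and was not called (-0.78 ± 0.32, limma adjusted p = 0.407). Its partner permease FTR1 stood at 161 RPKM in SD, within the YPD values of 181, 197 and 99.6 RPKM. The low-affinity iron transporter FET4, which was not in the list, fell from 32.0, 38.8 and 17.9 RPKM in YPD to 7.66 RPKM in SD (limma adjusted p = 0.0128), a call that was lost without the plain library (0.0558). The edeine library was the highest YPD library for 12 of the 14 iron genes. Genes of the list held 0.126% of the reads in SD (0.123 to 0.128%) and 0.327, 0.489 and 0.320% in YPD.

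Zinc and copper transporters changed in opposite directions. The zinc transporter ZRT1, of high affinity, stood at 221 RPKM in SD and at 40.2, 17.1 and 7.83 RPKM in YPD (3.56 ± 0.56, limma adjusted p = 0.00139). ZRT2, of low affinity, stood at 60.1 RPKM in SD against 23.1, 19.5 and 14.8 RPKM. Both followed the same order in YPD, the plain library being the highest and the aurin library the lowest. The copper transporter CTR1 fell, with 16.7 RPKM in SD and 123, 213 and 177 RPKM in YPD (-3.24 ± 0.33, limma adjusted p = 3.04e-05). ZRT3, which releases zinc from the vacuole, was the only other member of this list of 4 tested genes and was not called.

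**Figure D2:**
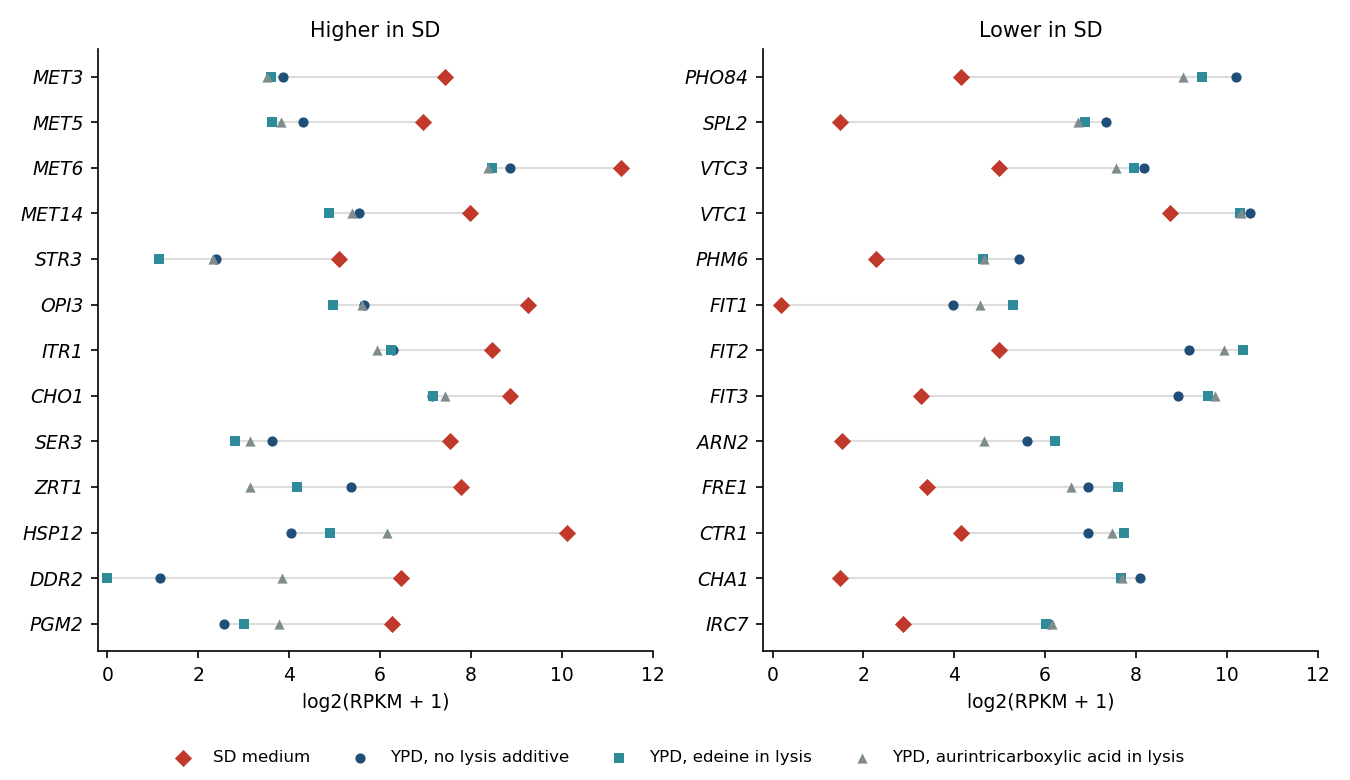
Footprint density of 13 genes higher in SD (left) and 13 genes lower in SD (right) in each library, as log2(RPKM + 1). Red diamonds are the SD library, circles the plain YPD library, squares the edeine library and triangles the aurin library, and each diamond lies outside the span of the 3 YPD symbols, from DDR2 with 0 to 13.4 RPKM in YPD and 87.4 in SD to FIT1 with 0.139 RPKM in SD.

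Phospholipid synthesis genes were higher in SD in part. Of 10 members of the inositol and phospholipid list tested, 5 rose, beside 2.4% of all genes tested, and 0 fell. Of the 10, 8 lay above every YPD library (33.2% of all genes), and the median log2 difference was 1.23. Phosphatidylcholine is made by methylation of phosphatidylethanolamine, which uses S-adenosylmethionine, or from imported choline. OPI3, which carries out the last methylations, stood at 610 RPKM in SD and at 49.3, 30.1 and 47.6 RPKM in YPD, and SD was 12.4 times the highest YPD value (3.85 ± 0.32, limma adjusted p = 4.31e-06). CHO2, which does the first methylation, stood at 155 RPKM in SD against 78.7, 54.9 and 36.5 RPKM. CHO1 and PSD1, which make phosphatidylserine and turn it into phosphatidylethanolamine, stood at 463 and 55.4 RPKM in SD, against 141, 143 and 173 RPKM for CHO1 and 21.0, 16.8 and 19.2 RPKM for PSD1. All 4 enzymes of this route thus lay above the YPD range.

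The transporters of the precursors were higher too. The inositol permease ITR1 stood at 353 RPKM in SD and at 77.2, 75.2 and 60.6 RPKM in YPD (2.31 ± 0.29, limma adjusted p = 0.000182). HNM1, the choline permease, was outside the list and stood at 145 RPKM in SD against 64.4, 56.2 and 39.7 RPKM. INO1, which makes inositol from glucose 6-phosphate, was below the filter and untested, with 333 reads in SD at 22.8 RPKM and 28, 3 and 15 reads in YPD at 0.668, 0.784 and 1.44 RPKM. The regulators INO2, INO4 and OPI1 were not called, with log2 differences of 0.21, 0.77 and 0.96. Genes of the list held 0.260% of the reads in SD (0.256 to 0.264%) and 0.0799, 0.0682 and 0.0657% in YPD. FAA1, which activates imported fatty acids and belongs to another list, stood at 213 RPKM in SD against 55.5, 45.7 and 49.5 RPKM (2.07 ± 0.28, limma adjusted p = 0.000392).

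Genes of the general stress response were higher in SD. Of 13 members tested, 10 rose and 0 fell, all 13 lay above every YPD library (33.2% of all genes), and the median log2 difference was 1.87. HSP12, a small membrane-associated protein and a standard reporter of Msn2 and Msn4, stood at 1117 RPKM in SD and at 15.4, 29.0 and 70.2 RPKM in YPD. It had the largest log2 rise of all called genes in the main fit, and SD was 15.9 times the highest YPD value (5.09 ± 0.54, limma adjusted p = 3.98e-05). DDR2, another reporter of the pathway, had 73 reads in SD at 87.4 RPKM and 3, 0 and 8 reads in YPD (4.79 ± 0.90, limma adjusted p = 0.00550). Without the aurin library DDR2 rose more than HSP12, by 5.88 against 5.65 on the log2 scale. PGM2, the phosphoglucomutase that feeds trehalose and glycogen synthesis, stood at 75.7 RPKM in SD and at 4.97, 7.07 and 12.8 RPKM in YPD. DDR2 and PGM2 averaged under 10 RPKM in YPD and passed the filter only through SD, so their place above the YPD mean was fixed by the filter. Both are included in the list counts and median above. Among the 8 list members with a mean of at least 30 RPKM the median was 1.58. The trehalose synthase subunits TSL1 and TPS2 and the glycogen synthase GSY2 were also called, with rises of 2.35, 1.29 and 1.87 on the log2 scale, and TPS1 was not called (1.11, limma adjusted p = 0.0864). The call of TPS2 was lost without the plain library (limma adjusted p = 0.0893) and without the edeine library (0.0515). HOR7, a small protein known from hyperosmotic stress, stood at 2510 RPKM in SD and at 552, 344 and 420 RPKM in YPD.

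Stress genes also varied between YPD libraries, with the aurin library the highest for 12 of 13 members and the plain library the lowest for 11. SD lay above the aurin value in each of these 13 genes. Members below the filter were not tested and their values were 16.3 RPKM in SD against 0.451, 0.741 and 1.36 RPKM for the catalase CTT1, and 32.2 RPKM against 1.95, 2.26 and 2.54 RPKM for the glycogen phosphorylase GPH1. MSC1 and RTC3, both among the 15 largest rises, belonged to no list. MSC1 stood at 52.3 RPKM in SD against 3.06, 5.99 and 5.50 RPKM, and RTC3 at 171 RPKM against 7.60, 23.3 and 31.1 RPKM. The general stress list held 0.366% of the reads in SD (0.361 to 0.370%) and 0.0822, 0.110 and 0.139% in YPD.

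Among heat shock genes few were called. Of 14 members tested, 2 rose, beside 2.4% of all genes tested, and 0 fell. The median log2 difference was 0.01, which changed to -0.13 after centring the libraries. One of the 2 was HSP12, a member of both lists. The other was the inducible Hsp70 gene SSA4, at 21.0 RPKM in SD and 4.88, 9.66 and 6.85 RPKM in YPD (limma adjusted p = 0.0217), whose call was lost without the plain library (0.0643). The abundant Hsp70 genes SSA1 and SSA2, counted on 1 line, stood at 2345 RPKM in SD and at 2981, 3269 and 3082 RPKM in YPD and were not called. The list had 4 calls without the aurin library and 1 without the plain library, and its share of reads, 1.71% in SD, lay below the YPD values of 1.88, 2.22 and 1.97%. HSP104, the disaggregase, was not called either, at 170.2 RPKM in SD and 92.4, 144 and 136 RPKM in YPD.

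**Figure D3:**
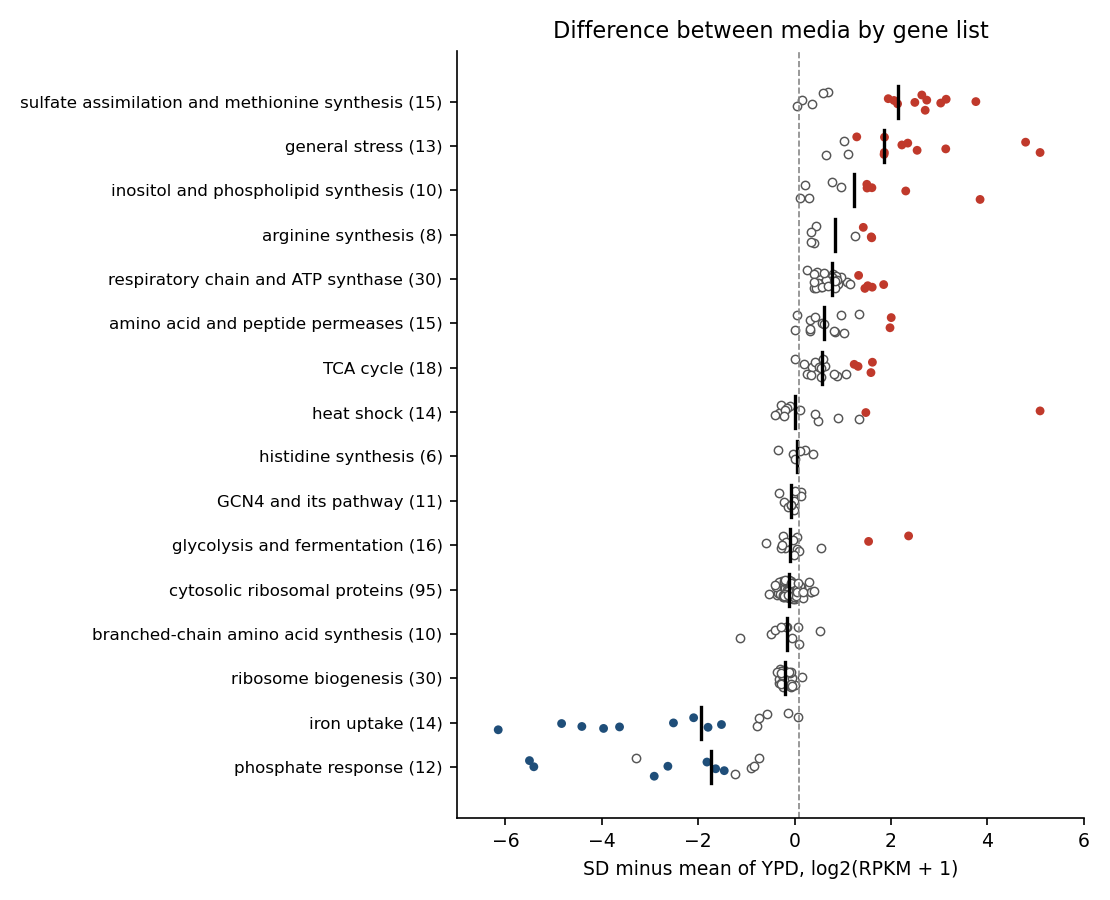
Difference between SD and the mean of YPD for each tested member of 16 lists, on the log2(RPKM + 1) scale, with the number tested in brackets. Filled points passed the limma test (red higher, blue lower in SD), open points did not, black bars are list medians, and the dashed line is the median of all genes at 0.08. Vertical scatter within a list only separates the points. Phosphate and iron genes lie mostly to the left, from -6.15 for FIT3, and methionine and stress genes to the right, up to 5.09 for HSP12.

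Footprints on amino acid synthesis genes outside the sulfur branch changed for single enzymes and in the arginine branch. Of 8 arginine genes tested, ARG1, ARG3 and ARG4, the last 3 enzymes before arginine, rose, none fell and all 8 lay above every YPD library (33.2% of all genes). ARG1 stood at 227 RPKM in SD and at 69.6, 73.3 and 82.0 RPKM in YPD (1.59 ± 0.28, limma adjusted p = 0.00390). ARG3 stood at 40.2 RPKM in SD against 12.8, 12.4 and 12.6 RPKM, and ARG4 at 159 RPKM against 53.4, 61.1 and 61.7 RPKM. The median log2 difference of the list was 0.84, and it was 0.40 among its members with a mean of at least 30 RPKM.

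SER3, an enzyme of serine synthesis, and CHA1, which breaks serine down, changed in opposite directions. SER3 averaged under 10 RPKM in YPD, so its place above the YPD mean was fixed by the filter. SER3, the phosphoglycerate dehydrogenase that starts serine synthesis, stood at 187 RPKM in SD and at 11.4, 5.99 and 7.81 RPKM in YPD (4.36 ± 0.33, limma adjusted p = 1.66e-06). CHA1, the serine and threonine deaminase that breaks these amino acids down, stood at 1.78 RPKM in SD (17 reads) and at 272, 202 and 205 RPKM in YPD. It was the largest fall of all called genes, with the lowest YPD value 113 times the SD value (-6.34 ± 0.30, limma adjusted p = 1.27e-08). SER3 was the only 1 of 20 members called in the list of serine, glycine, threonine, glutamate, asparagine and proline synthesis, whose median log2 difference was -0.01. MMF1, a mitochondrial protein whose family clears reactive intermediates of serine and threonine deamination, stood at 692 RPKM in SD and at 1586, 1646 and 1486 RPKM in YPD. Its call (limma adjusted p = 0.0309) was lost without the plain library (0.0690) and without the edeine library (0.117).

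No member was called by limma among the 6 histidine, 10 branched-chain and 6 lysine synthesis genes tested. Among these 22 genes, 0 were higher and 1 was lower at an unadjusted p under 0.05. That gene was BAT2, a branched-chain aminotransferase, at 114 RPKM in SD and 267, 206 and 289 RPKM in YPD (-1.13 ± 0.30, limma adjusted p = 0.0594). It was called lower in 6 alternatives, among them the fits without the edeine library and without the aurin library. The branched-chain genes held 0.709% of the reads in SD, below the YPD values of 0.986, 0.796 and 0.838%. HIS4 stood at 142 RPKM in SD, within the YPD values of 197, 93.4 and 97.9 RPKM. ILV5, a branched-chain enzyme, stood at 2066 RPKM in SD, below YPD values of 3097, 2766 and 2802 RPKM, and was not called. GCN4, the activator of amino acid synthesis whose translation rises in starvation, stood at 37.1 RPKM in SD and at 31.7, 38.4 and 43.8 RPKM in YPD, a log2 difference of -0.02 ± 0.30 (95% interval -0.65 to 0.61). None of the 11 members of its list, which holds the kinase pathway and initiation factors upstream of it, was called by limma, with 0 higher and 0 lower at an unadjusted p under 0.05.

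Of 15 amino acid and peptide permeases tested, AGP1 and SAM3 rose, 0 fell and 13 lay above every YPD library (33.2% of all genes), with a median of 0.62. Without the aurin library 5 of them were called. AGP1, a broad-range permease induced by external amino acids, stood at 39.3 RPKM in SD and at 10.1, 11.3 and 6.80 RPKM in YPD (1.98 ± 0.32, limma adjusted p = 0.00162). GAP1, the general permease that is repressed on good nitrogen sources, stood at 29.7 RPKM in SD and at 5.75, 5.28 and 4.89 RPKM in YPD (2.29 ± 0.28, limma adjusted p = 0.000163), and it was the only called gene of 6 tested under nitrogen catabolite repression. Its YPD values all lay under the filter of 10 RPKM, so it was tested only through SD. Of the 22 genes of that list, 16 were not tested. MUP1, the high-affinity methionine permease, was not called, at 215 RPKM in SD and 118, 106 and 48.4 RPKM in YPD. ARO9 and ARO10, which break down aromatic amino acids to fusel alcohols, stood at 69.4 and 55.0 RPKM in SD. Their YPD values were 10.4, 35.4 and 15.4 RPKM for ARO9 and 4.32, 16.7 and 5.18 RPKM for ARO10, with the edeine library the highest for both, and the call of ARO9 (limma adjusted p = 0.0366) was lost without the plain library (0.104).

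Respiratory chain genes were higher in SD in part. Of 30 respiratory chain and ATP synthase genes tested, 5 rose, 0 fell and 28 lay above every YPD library (33.2% of all genes), with a median log2 difference of 0.78. CYC1, the cytochrome c that carries electrons to the last complex, stood at 242 RPKM in SD and at 50.04, 73.4 and 80.2 RPKM in YPD (1.85 ± 0.32, limma adjusted p = 0.00315). The other 4 called genes, CYT1, RIP1, QCR9 and QCR10, are all subunits of complex III, with rises of 1.61, 1.46, 1.33 and 1.52 on the log2 scale. Without the aurin library 13 members of the list were called. Within YPD the plain library was the lowest for 25 of the 30 members, beside 1750 of all 3796 genes tested. The edeine library was the highest for 20 of the 30. INH1, the inhibitor of the ATP synthase and no member of the list, stood at 172 RPKM in SD and at 13.4, 32.3 and 34.7 RPKM in YPD.

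In the TCA cycle 4 of 18 tested genes rose, beside 2.4% of all genes tested, and 0 fell. Of the 18, 16 lay above every YPD library (33.2% of all genes), and the median was 0.57. CIT1, the mitochondrial citrate synthase, stood at 241 RPKM in SD and at 74.4, 80.9 and 79.5 RPKM in YPD (1.61 ± 0.28, limma adjusted p = 0.00318). CIT2, its peroxisomal counterpart, stood at 306 RPKM in SD against 95.8, 84.8 and 128 RPKM. The remaining calls, the succinate dehydrogenase subunits SDH1 and SDH2, were lost without the edeine library (limma adjusted p = 0.0720 and 0.0531), and that of SDH2 also without the plain library (0.114). Glycolysis and fermentation genes, which carry most of the glucose flux, had 2 calls in 16, both of them glucose kinases. Both were higher in SD, beside 2.4% of all genes tested. HXK1 stood at 224 RPKM in SD and at 25.7, 43.7 and 68.9 RPKM in YPD (2.37 ± 0.41, limma adjusted p = 0.00318). GLK1 stood at 257 RPKM in SD and at 65.0, 71.7 and 147 RPKM in YPD. It shares part of its sequence with the overlapping open reading frame YCL042W, which was called as well, so their reads cannot be told apart, and both calls were lost without the plain library (limma adjusted p = 0.156 and 0.0607). The main hexokinase HXK2 stood at 1003 RPKM in SD against 1625, 1305 and 1604 RPKM and was not called.

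The shares of cytosolic ribosomal proteins and of glycolysis lay within the range seen in YPD, and that of the translation elongation list just below it. Cytosolic ribosomal protein genes held 21.5% of the recovered reads in SD and 21.5, 25.4 and 23.8% in YPD, and glycolysis and fermentation genes 12.98% in SD and 15.4, 12.3 and 15.3% in YPD. The translation elongation list, which also includes the initiation helicase DED1, held 5.16% in SD and at least 5.26% in the YPD libraries. The plain YPD library and SD gave the same ribosomal protein share to 3 digits. None of 95 lines of cytosolic ribosomal protein genes was called by limma, with 0 higher and 0 lower at an unadjusted p under 0.05 and a median log2 difference of -0.11. Ribosome biogenesis genes had 0 calls in 30, with 0 higher and 0 lower at an unadjusted p under 0.05. Their median was -0.19 and 28 of the 30 were negative, beside 1404 of all 3796 genes, while 11 lay below every YPD library (14.8% of all genes). Mitochondrial ribosomal proteins had 0 limma calls in 69, with 1 higher and 0 lower at an unadjusted p under 0.05. Their median of 0.11 lay near that of all genes and turned to -0.03 after centring the libraries. Gene lengths included introns, so shares of intron-bearing ribosomal protein genes are approximate.

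**Figure D4:**
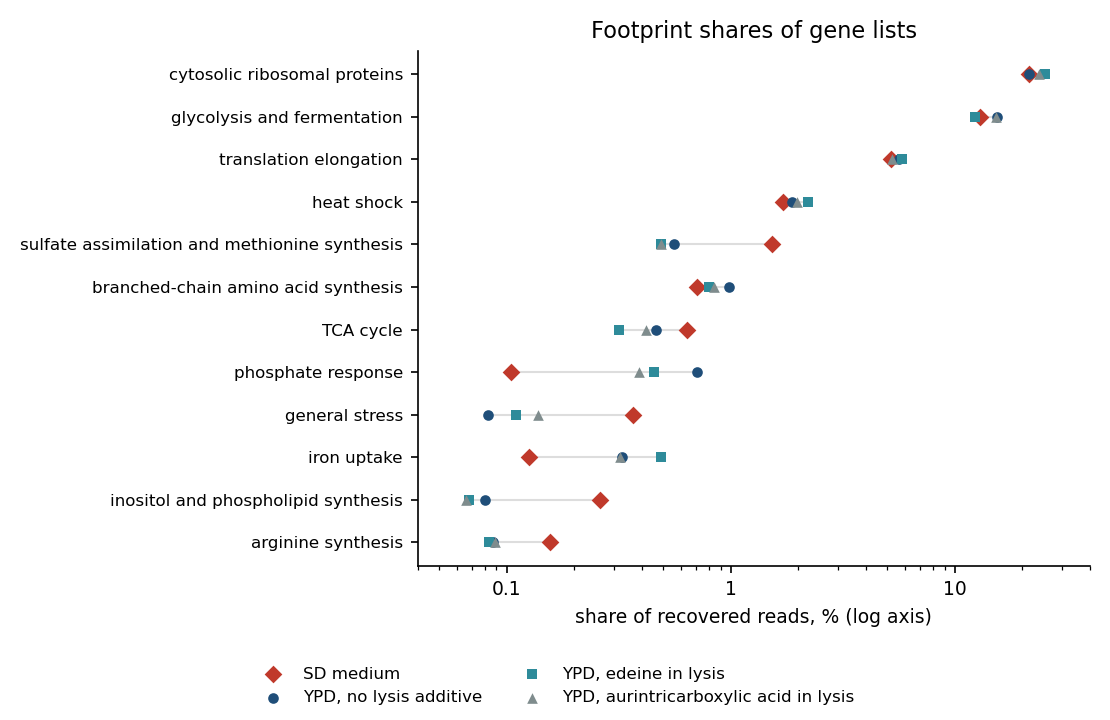
Share of the recovered reads on the genes of 12 lists in each library, in percent on a logarithmic axis. Red diamonds are the SD library and the other symbols the 3 YPD libraries. The shares of ribosomal proteins and glycolysis overlap between media at 21.5% and 12.98% in SD, while the methionine share of 1.52% in SD lies to the right of YPD and the phosphate share of 0.104% to its left.

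Cell wall genes had calls in both directions among 10 mannoprotein genes tested, with a median log2 difference of -0.004. With the spread also taken from the 4 libraries at the x100 cycloheximide dose, none of the 10 was called. The mannoprotein TIR1, known from growth in cold and without oxygen, stood at 9.60 RPKM in SD and at 81.6, 59.6 and 112 RPKM in YPD (-2.97 ± 0.34, limma adjusted p = 8.74e-05). CWP1 and CWP2, mannoproteins linked to the wall, stood at 720 and 4296 RPKM in SD. Their YPD values were 193, 186 and 364 RPKM for CWP1 and 1890, 2143 and 1608 RPKM for CWP2, and both calls were lost without the plain library (limma adjusted p = 0.0853 and 0.0790). CIS1, among the 15 largest falls and in no list, had 6 reads in SD and 102, 6 and 68 reads in YPD, so its value is set by few counts.

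Sexual agglutinins, the cell surface proteins by which mating cells adhere, were higher in SD in this MATa strain. AGA2, the binding subunit of the a-agglutinin, stood at 207 RPKM in SD and at 44.2, 31.1 and 46.6 RPKM in YPD (2.34 ± 0.31, limma adjusted p = 0.000262). AGA1, its anchor, was outside the lists and stood at 65.3 RPKM in SD against 15.15, 13.8 and 11.4 RPKM. All 4 a-specific genes that passed the filter lay above every YPD library (33.2% of all genes), and AGA2 was the one called. The calls in this list numbered 2 without the plain library, 2 without the aurin library and 0 with the spread also taken from the x100 libraries. The pheromone receptor STE2 stood at 284 RPKM in SD and at 181, 147 and 119 RPKM in YPD (limma adjusted p = 0.170). SAG1, the alpha-agglutinin, is an alpha-specific gene and was untested, with 68 reads in SD and 8, 0 and 2 in YPD.

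The distribution of footprints along the reading frame was compared from the average occupancy profiles, which are scaled to 1 over the last 300 nt. The authors report a start-codon peak in every sample, and a broad peak after it that was lower without cycloheximide in the medium. The start-codon peak was 1.92 in SD and 1.79, 2.05 and 1.76 in YPD. The broad peak, the mean from nt 31 to 200, was 1.59 in SD and 1.38, 1.76 and 1.47 in YPD. SD thus lay within the YPD range for both, 1.03 and 1.04 times the YPD mean. The mean occupancy upstream of the start codon was 0.127 in SD and 0.107, 0.128 and 0.111 in YPD. When the profiles were scaled to the mean of the reading frame instead, it was 0.104 in SD, above the YPD values of 0.0943, 0.0992 and 0.0916. No test was made on the profiles, since 1 library against 3 cannot give a two-sided permutation p under 0.05.

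**Figure D5:**
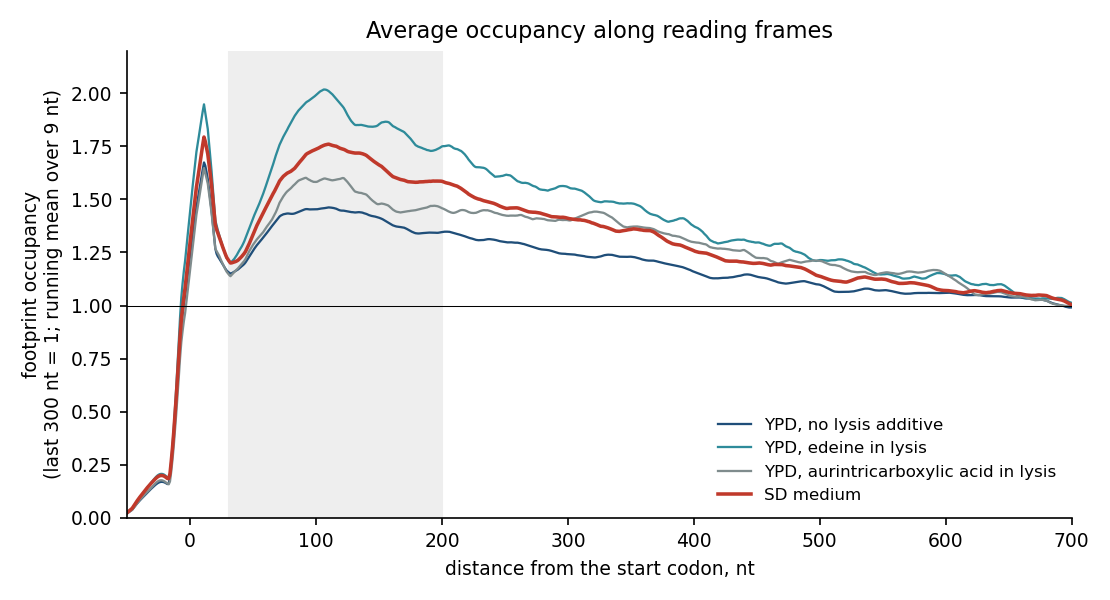
Average footprint occupancy from 50 nt upstream of the start codon to 700 nt into the reading frame, as a running mean over 9 nt, with the last 300 nt set to 1. The red line is SD and the other lines are the 3 YPD libraries, and the grey band marks the broad peak window. The broad peak of SD, 1.59, lies between those of the plain and the edeine library, 1.38 and 1.76.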

How the data were processed

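Footprints were aligned by the authors to the S288C genome with Bowtie 0.12.7. The authors calculated the deposited RPKM values separately for each library. The deposited occupancy profiles are a ratio to the mean over the last 300 nt, set by the authors, for single-exon genes longer than 1000 nt. How reads that align more than once were treated is not given in the sources used here. The table has 5564 lines, of which 116 join several locus tags and 5446 of the 5448 single tags matched RefSeq names. No sample column was left out.

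Depth was recovered from low RPKM values, which are whole reads once 99 or 100 nt are taken off each gene length (98.2 to 99.5% within 0.1 read). Genes were compared with limma (two-sided, pseudocount of 1 RPKM, mean of at least 10 RPKM), so fold changes of low genes are understated. The script was tested on simulated data. Genes named are the list members and the 15 largest rises and falls among called genes outside the YPD range, and a few called or untested genes outside these (PHO87, FET4, HNM1, MHT1, AGA1, MMF1, YCL042W) were chosen after their values were seen. The comparison, the members of it and the lists were chosen with earlier results of these data known. Promoter sequences were not used here. Tools were R 4.3.3 with limma 3.58.1, and Python 3.11.15 with matplotlib 3.10.9, scipy 1.17.1, pandas 2.3.3 and numpy 2.4.6.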

Additional observations from a re-analysis of the deposited data

How the results depend on the processing

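With 1 SD library, no culture-to-culture spread in SD was measured, and the lysis of the 3 YPD libraries differed, so their spread holds this difference too. No paired analysis was possible because the SD library has no replicate and the YPD libraries carry no numbers that link them to it. The count of higher genes, 91, ranged from 75 to 191 when each YPD library was left out, was 52 with a mean of at least 30 RPKM (2210 genes tested) and 0 with no filter. The count of lower genes, 29, ranged from 24 to 45 when each YPD library was left out, was 17 with the spread also taken from the 4 libraries at the x100 cycloheximide dose, and 0 with no filter. Without the filter the prior of limma had 1.098 degrees of freedom in place of 12.2 and the lowest adjusted p was 0.139. An alternative chosen after seeing the data, no filter together with an intensity trend in the prior, called 25 higher and 3 lower genes, of which 2 and 3 were among the 91 and 29. The prior also changed when a YPD library was left out. It had 60.72 degrees of freedom without the aurin library and 10.43 without the plain library, and was infinite without the edeine library. Call counts and lost calls of these fits thus also depend on how far the variance was moderated across genes. Genes at least 2-fold outside the YPD range numbered 109 in both directions, 187 with no filter and 65 with a mean of at least 30 RPKM. The all-gene median of 0.08 became -0.0523 after the median gene of every library was set to 0. With pseudocounts of 0.1 and 10 the calls were 81 and 99 higher and 28 and 26 lower, with centring 69 and 30, and with an intensity trend 98 and 29. Over the 9 alternatives that kept a filter, 54 of the 91 higher and 13 of the 29 lower genes stayed called wherever they were tested, and 0 called genes changed sign. With full gene length in place of recovered reads, or without ribosomal protein reads, the ratios of SD to YPD for the shares recomputed (8 and 7 lists) moved by less than 1 standard deviation over the YPD libraries, and so did those of both profile peaks under another scaling and, for the broad peak, other windows. Genes under 500 nt had a median difference of 0.16 and genes of the longest class 0.05, and the plain and aurin libraries differed from the other YPD libraries by -0.30 and 0.28 in the shortest class. The edeine library, at 2.55 M reads, limits what can be said of genes with few reads.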

Other observations

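Vitamin pathways gave few measured genes, since 13 of 16 thiamine lines and 3 of 5 biotin genes lay below the filter. In both media the share of reads on thiamine genes was small, 0.0215% in SD and 0.0589, 0.0259 and 0.0286% in YPD, and 0 of 3 tested thiamine genes was called by limma (0 higher and 1 lower at an unadjusted p under 0.05). Among vitamin genes, BNA1, an enzyme of NAD synthesis from tryptophan, was called, with 131 RPKM in SD and 56.8, 41.6 and 68.1 RPKM in YPD (1.26 ± 0.32, limma adjusted p = 0.0453), a call lost without the plain library (0.0927) and without the edeine library (0.190).

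Purine and pyrimidine synthesis had 0 limma calls in 10 and 7 genes tested, with 0 higher and 0 lower at an unadjusted p under 0.05 in either list. The purine share was 0.374% in SD and 0.700, 0.295 and 0.299% in YPD, so the plain library alone stood apart from the other three. Ergosterol synthesis, the sterol pathway of the yeast membrane, had 0 limma calls in 23, with 0 higher and 0 lower at an unadjusted p under 0.05, and its share was 0.716% in SD and 0.801, 0.684 and 0.657% in YPD.

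Other called genes lay outside the lists. The mitochondrial lactate dehydrogenase DLD1 stood at 78.0 RPKM in SD and at 13.9, 15.6 and 16.4 RPKM in YPD (2.28 ± 0.28, limma adjusted p = 0.000164). The glutamate decarboxylase GAD1 stood at 47.6 RPKM in SD and at 5.26, 8.05 and 9.21 RPKM in YPD (2.55 ± 0.32, limma adjusted p = 0.000182). COX5B, the form of a cytochrome c oxidase subunit known from growth with little oxygen, stood at 96.0 RPKM in SD and at 22.9, 15.9 and 32.8 RPKM in YPD (2.02 ± 0.35, limma adjusted p = 0.00327). The multidrug transporter PDR5 was lower, with 116 RPKM in SD and 285, 214 and 311 RPKM in YPD, and its call (limma adjusted p = 0.0462) was lost without the plain library (0.123). These 4 genes were chosen after their values were seen.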
